A study of Mus musculus with 6 samples.

Results

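FLICs and embryonic stem (ES) cells, both given OHT and both labelled as lacking TRF2, were compared by RNA-seq across all genes. The comparison uses 3 of the 6 libraries of the series, chosen by their titles and treatment labels: 1 library of FLICs with OHT and 2 of ES cells with OHT. The labels describe FLICs as differentiated cells derived from ES cells, and both cell types have a C57BL/6 background. In every group used here OHT (hydroxytamoxifen, the active form of tamoxifen) was given for 3 days within a culture of 96 h, and the labels give the resulting genotype as TRF2-/-. The other 3 libraries are the same cells without OHT, labelled wild-type: 1 library of FLICs and 2 of ES cells. OHT was given only to cells labelled TRF2-/-, and effects of the drug and of TRF2 loss cannot be told apart. FLICs with OHT are a single library, and the labels do not say whether the ES cell libraries came from separate cultures. All p-values therefore measure only the spread between these libraries, and the FLICs library is assumed to vary as the ES cell libraries do.

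TRF2, encoded by Terf2, is a member of shelterin, the protein complex that binds telomeric repeats and keeps chromosome ends from being read as DNA breaks. The series asks whether pluripotent cells depend on this protein in the way that differentiated cells do. ES cells are held in the naive pluripotent state by transcription factors such as Pou5f1 (OCT4), Nanog and Esrrb, and they grow as tight epithelial-like colonies. Differentiated mesenchymal cells lose that network, secrete collagen matrix and build contractile actin fibres, which serum response factor, YAP with its TEAD partners and AP-1 are known to regulate.

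Stretches of 6 promoters are shown because each belongs to a called gene of a group described here and holds the motif searched for in that group. They were chosen for the match. Except for Zfp42, which had the largest difference in its group, other genes of the same groups differed more between the cell types. Each runs 5′ to 3′ on the gene's strand from 250 bases before to 50 after the RefSeq start on GRCm38.p6, with the match in capitals. The match is a CArG box, the serum response factor motif, in Myl9 (chr2:156775214-156775513, plus strand) and Actg1 (chr11:120348446-120348745, minus strand). It is GGAATG, the TEAD motif, in Ankrd1 (chr19:36119795-36120094, minus strand), which has 2 matches. It is TGANTCA, the AP-1 motif, in Mmp3 (chr9:7445572-7445871, plus strand). It is ATGCAAA, the core of the octamer that OCT4 binds, in Zfp42 (chr8:43306960-43307259, minus strand) and Nanog (chr6:122707239-122707538, plus strand), in both cases on the opposite strand and so printed as its reverse complement.
Myl9: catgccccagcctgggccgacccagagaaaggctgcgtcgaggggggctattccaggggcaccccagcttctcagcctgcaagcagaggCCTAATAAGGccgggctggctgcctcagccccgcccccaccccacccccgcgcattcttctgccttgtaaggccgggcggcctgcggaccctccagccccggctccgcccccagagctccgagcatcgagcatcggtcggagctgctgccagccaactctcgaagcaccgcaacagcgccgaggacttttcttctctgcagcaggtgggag
Actg1: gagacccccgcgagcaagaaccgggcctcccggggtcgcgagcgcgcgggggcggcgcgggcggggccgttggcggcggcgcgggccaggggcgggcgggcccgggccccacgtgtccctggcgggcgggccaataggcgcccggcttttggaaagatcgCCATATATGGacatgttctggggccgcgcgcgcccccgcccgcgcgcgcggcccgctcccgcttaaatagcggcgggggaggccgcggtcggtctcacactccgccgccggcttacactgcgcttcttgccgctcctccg
Ankrd1: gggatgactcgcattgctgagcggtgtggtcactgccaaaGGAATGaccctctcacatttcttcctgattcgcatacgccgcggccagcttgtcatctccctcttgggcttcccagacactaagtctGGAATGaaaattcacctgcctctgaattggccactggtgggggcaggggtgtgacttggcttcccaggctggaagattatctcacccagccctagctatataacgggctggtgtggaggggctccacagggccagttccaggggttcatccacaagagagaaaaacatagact
Mmp3: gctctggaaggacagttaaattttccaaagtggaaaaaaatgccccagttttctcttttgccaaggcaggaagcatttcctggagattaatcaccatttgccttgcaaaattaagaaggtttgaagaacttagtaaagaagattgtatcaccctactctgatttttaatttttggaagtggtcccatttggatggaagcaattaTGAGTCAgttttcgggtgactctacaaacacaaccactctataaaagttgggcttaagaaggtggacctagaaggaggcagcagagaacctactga
Zfp42: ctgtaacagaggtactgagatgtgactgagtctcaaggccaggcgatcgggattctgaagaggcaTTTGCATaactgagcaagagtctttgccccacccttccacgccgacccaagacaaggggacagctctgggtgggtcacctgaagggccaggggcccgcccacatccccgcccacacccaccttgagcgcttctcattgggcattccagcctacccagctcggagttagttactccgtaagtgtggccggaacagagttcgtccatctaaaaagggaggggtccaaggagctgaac
Nanog: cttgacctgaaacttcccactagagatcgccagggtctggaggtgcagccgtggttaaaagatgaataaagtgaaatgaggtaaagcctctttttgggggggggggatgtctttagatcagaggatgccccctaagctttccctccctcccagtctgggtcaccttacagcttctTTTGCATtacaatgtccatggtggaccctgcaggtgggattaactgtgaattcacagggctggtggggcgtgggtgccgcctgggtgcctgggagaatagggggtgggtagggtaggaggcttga

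Both strands of every stretch were searched, and the share of genes with a match was set beside that of all 27025 genes with a RefSeq stretch of this length. CArG boxes were found in 2 of 16 smooth muscle genes (Myl9, Srf), 3 of 4 actin genes (Acta1, Actc1, Actg1) and 3 of 22 immediate early genes (Egr2, Srf, Zfp36), against 1.81% of all genes. GGAATG was found in 13 of 20 YAP and TEAD targets (65.0%), against 16.6% of all genes. The 13 genes include Yap1, Wwtr1 and Tead3, which encode the factors themselves. TGANTCA was found in 8 of 25 secretory genes and 4 of 23 matrix enzyme genes, against 8.97%, and ATGCAAA in 4 of 26 naive pluripotency genes (Esrra, Nanog, Sox2, Zfp42), against 5.24%. Srf is in both the smooth muscle and the immediate early group. The matrix enzyme genes with TGANTCA (Mmp3, Mmp10, Mmp13, Plaur) are all among the secretory genes with it. A match is a run of letters in this window and was not tested for binding, and some genes of each group had no RefSeq stretch.

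Total counts of the 6 libraries ran from 23534551 to 43965309, the lowest in ES cells with OHT replicate 2 and the highest in FLICs with OHT. Values are given below as CPM, the count of a gene relative to the TMM-scaled total of its library, in the order FLICs, ES cell replicate 1, ES cell replicate 2, all with OHT unless stated. Where a gene had 0 counts, up to 3 counts remain possible, or 0.0686 CPM in FLICs and 0.0521 CPM over the pair of ES cell libraries; such floors cover counting error only. The ES cell libraries with OHT differed from each other more than the untreated pair did (chi-square per degree of freedom 66.3 against 13.2). Terf2 was near the floor in all 3 libraries, at 0.114 against 0.281 and 0.392 CPM, with a log2 fold change of -1.51 (edgeR adjusted p = 0.0389). That call was lost without ES cell replicate 2 and without either untreated ES cell library. The other 6 shelterin genes were not called: Acd at 52.7 against 42.6 and 36.8 CPM, Pot1a at 48.7 against 64.2 and 54.7 CPM, Pot1b at 8.62 against 7.46 and 6.27 CPM, Tinf2 at 64.0 against 53.1 and 68.9 CPM, Terf2ip at 32.7 against 51.3 and 38.3 CPM and Terf1 at 67.9 against 179.6 and 92.4 CPM. Terf1, the second telomere-repeat binder of the complex, had a log2 fold change of -1.003, and it was called lower at -0.45 without ES cell replicate 1 and at -1.42 without replicate 2.

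FLICs and ES cells differed across most of the expressed transcriptome. Of 15535 genes tested with edgeR's quasi-likelihood test, 8967 (57.7%) were called at an adjusted p under 0.05, 4410 (28.4%) higher and 4557 (29.3%) lower in FLICs, with a median log2 fold change over all genes of -0.07. Of the called genes, 1901 differed by less than 2-fold and 0 had a FLICs value inside the range of the ES cell libraries. By a count without a test, 4929 of 13809 genes (35.7%) had a FLICs value at least 2-fold beyond both ES cell libraries on CPM + 1, 2693 above (19.5%) and 2236 below (16.2%). Expression was close to all or none for many genes: 33 genes had 0 counts in both ES cell libraries and at least 5 CPM in FLICs, and 83 had 0 counts in FLICs and at least 5 CPM in both ES cell libraries. Leaving out ES cell replicate 1 or 2 with OHT, which leaves the closer untreated pair as the only measure of spread, gave 11726 or 11786 calls, and leaving out untreated replicate 1 or 2 gave 6849 or 6864. Of the 48 named genes that were not called, 23 were called without ES cell replicate 1 and 23 without replicate 2, so a gene given below as not called was not shown to be alike in the cell types.

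**Figure D1:**
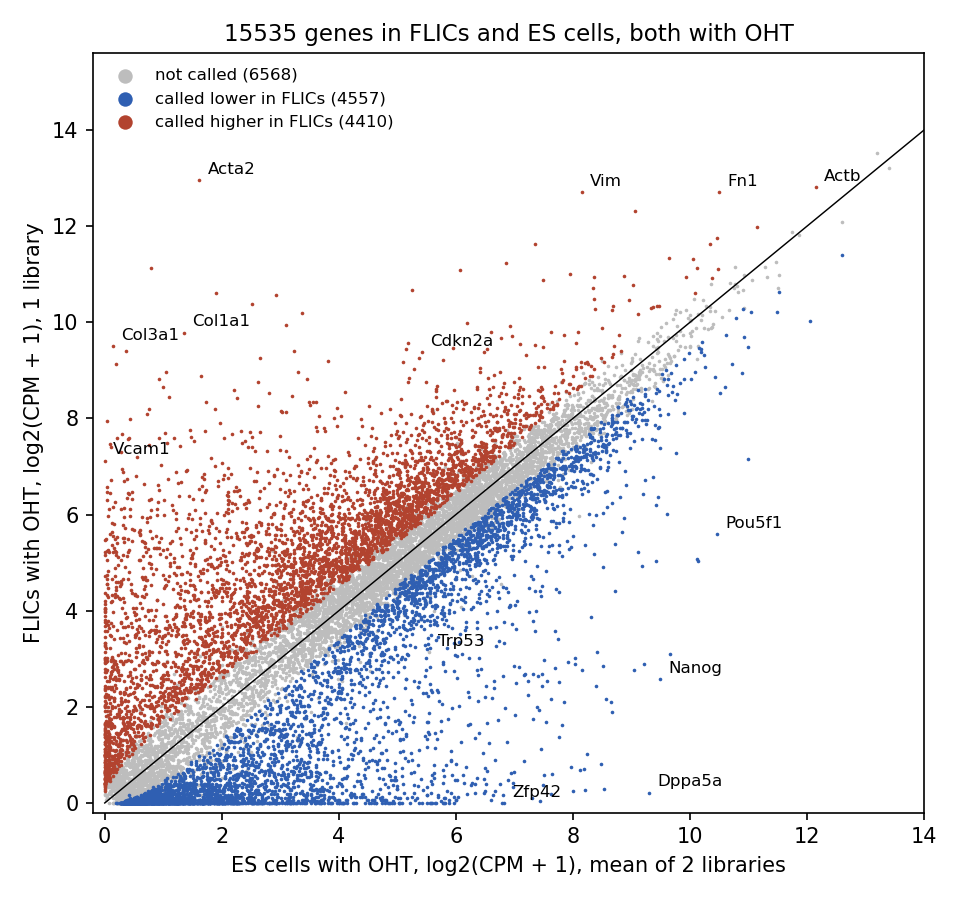
Each point is 1 gene, with its mean level in ES cells with OHT on the x axis and its level in FLICs with OHT on the y axis, both as log2(CPM + 1), coloured by the edgeR call. Called genes (4410 higher, 4557 lower) lie on both sides of the diagonal, and the labelled genes include Acta2 at 7921 CPM in FLICs and Zfp42 at 0 CPM.

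The genes with the largest differences were connective tissue genes on one side and pluripotency and early embryo genes on the other. Among genes at 20 CPM or more, Vcam1, an adhesion receptor of stromal cells, had 138 against 0 and 0 CPM and was at least 2649.6-fold higher in FLICs. The transcription factors Eya4 (43.1 against 0 and 0 CPM), Osr1 (36.4 against 0 and 0 CPM) and Prrx1 (34.9 against 0 and 0 CPM) and the surface protein Tm4sf1 (25.4 against 0 and 0 CPM) also had 0 counts in both ES cell libraries. Each was at least 487-fold higher in FLICs. Other genes at the top were Col3a1 (722 against 0.125 and 0.0784 CPM), Ptx3 (246 against 0.0624 and 0 CPM), which encodes the secreted pentraxin 3, Col12a1 (557 against 0.0936 and 0.196 CPM), the growth factor Ptn (2239 against 0.406 and 1.06 CPM), the protocadherin Pcdh7 (94.3 against 0.0624 and 0 CPM) and Cav1 (175 against 0.125 and 0 CPM), the coat protein of caveolae. In all of these the ES cell libraries stayed at or below 1.06 CPM, and the FLICs library stood clear of both.

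On the other side, Zfp42 (REX1, chromosome 8, 43295063 to 43306980 on GRCm38), a marker of naive ES cells, had 0 against 115 and 109 CPM and was at least 1635-fold lower in FLICs. A further 11 genes named by the same rule also had 0 counts in FLICs: Pla2g1b (0 against 89.3 and 129 CPM), the glutathione peroxidase Gpx2 (0 against 59.9 and 62.8 CPM), the phosphatase Inpp5d (0 against 29.4 and 86.3 CPM), Myh13 (0 against 68.7 and 41.3 CPM), Rpl10l (0 against 53.9 and 55.4 CPM), Zscan4c (0 against 61.1 and 46.3 CPM), Zscan4f (0 against 52.95 and 44.5 CPM), the apolipoprotein Apoc1 (0 against 38.6 and 60.1 CPM), the oocyte gene Ooep (0 against 31.4 and 62.7 CPM), Pramel6 (0 against 50.1 and 43.5 CPM) and Pramef12 (0 against 40.1 and 49.2 CPM). The ES cell libraries differed from each other most for Inpp5d and Ooep, and both still stood clear of FLICs. Rpl10l, Zscan4c, Zscan4f, Pramel6 and Pramef12 have near-identical copies or paralogues, so how reads were divided among them is uncertain.

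Per kilobase of the deposited length, the highest-level genes that separated the cell types were cytoskeletal and secreted in FLICs. Acta2, smooth muscle alpha-actin (chromosome 19, 34241090 to 34255590 on GRCm38), reached 7004 CPM per kilobase in FLICs against a mean of 1.82 in ES cells. On that scale FLICs also had high levels of Lgals1 (5154 against 157), a secreted galectin, of the intermediate filament Vim (4758 against 203), of Ptn (4298 against 1.41), of the calcium binder S100a6 (3685 against 28.3) and of the annexins Anxa1 (1505 against 2.63) and Anxa2 (1396 against 31.4). In ES cells the genes at the other end were Bex1 (82.9 in FLICs against 2933), the lipid carrier Apoe (151 against 2170.3), Dppa5a (0.452 against 1776), Pou5f1 (42.2 against 1252), the metallothioneins Mt1 (75.6 against 1150.4) and Mt2 (24.9 against 1022), and Trh (9.92 against 1051), the precursor of thyrotropin-releasing hormone. The ES cell library values of Bex1 were 641 and 1612 CPM, so its ES cell level depended on the library, while FLICs at 31.8 CPM were below both.

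**Figure D2:**
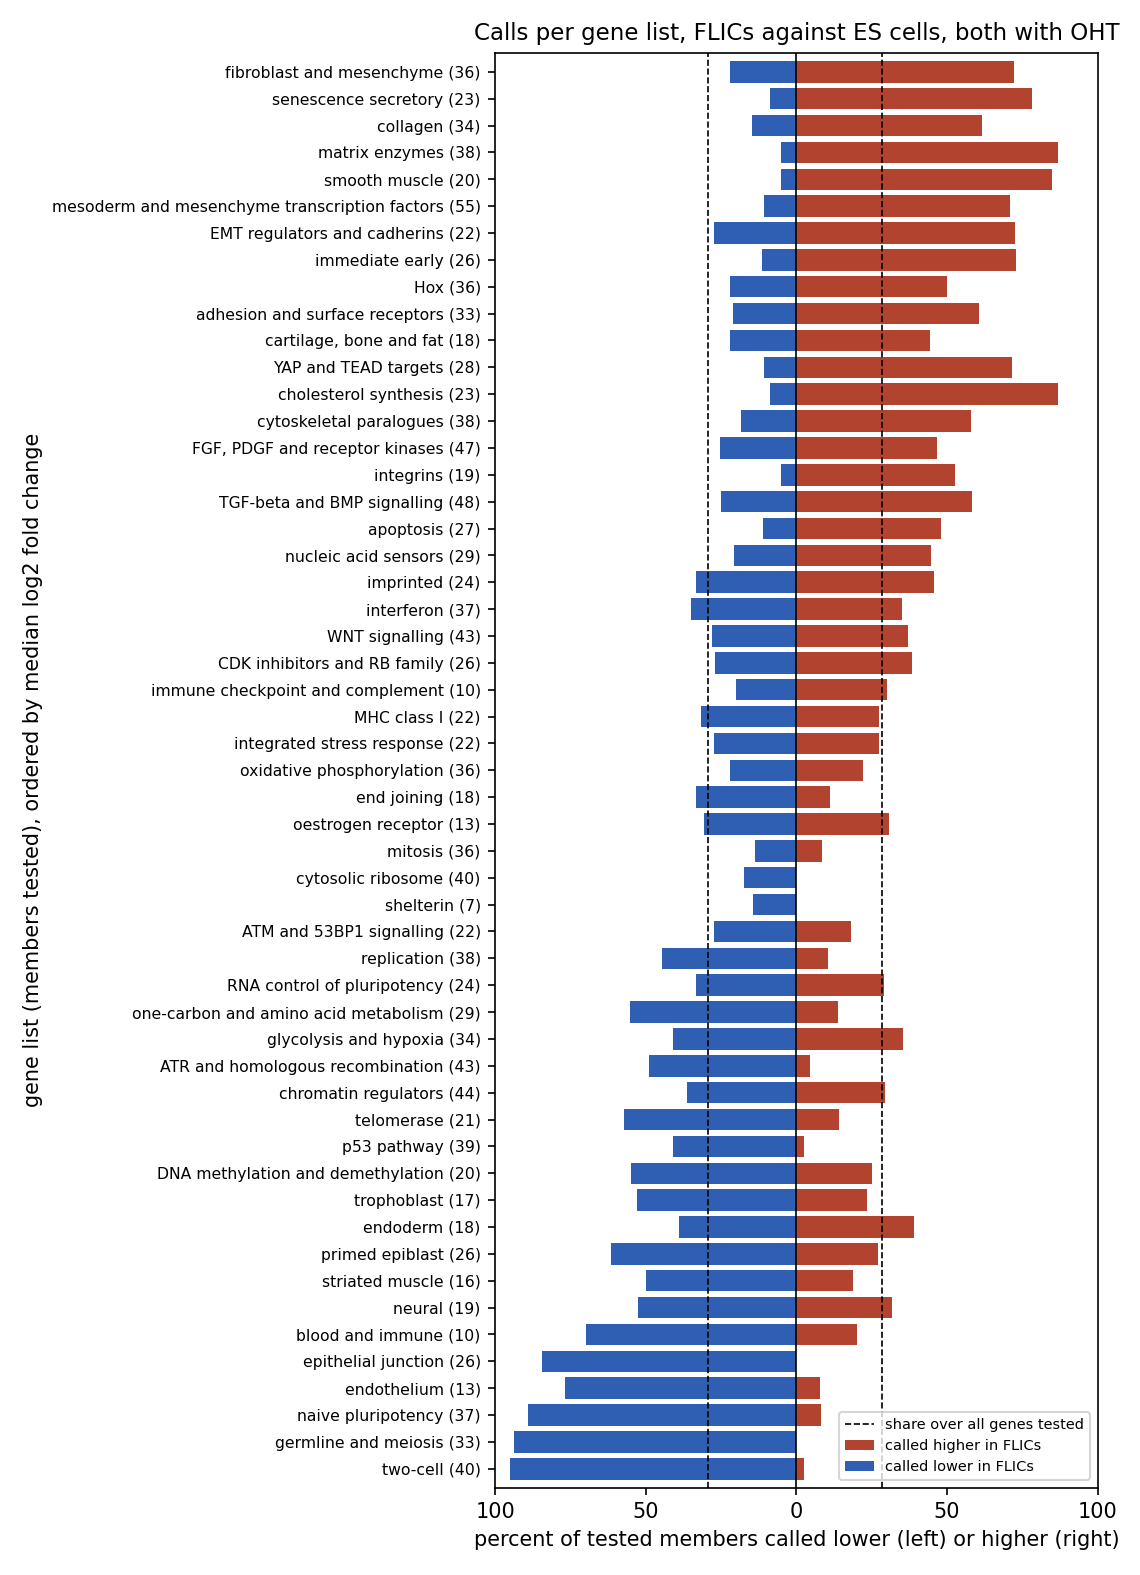
Bars show, for each gene group with 7 or more tested members, the percent of tested members called lower (left) or higher (right) in FLICs with OHT by edgeR. Dashed lines mark the shares over all genes, 29.3% lower and 28.4% higher, and the cholesterol synthesis and matrix enzyme groups extend furthest to the right while the two-cell and germline groups extend furthest to the left. Groups are ordered by their median log2 fold change.

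Almost all genes of the naive pluripotency network were lower in FLICs. Of 37 genes, 33 were called lower and 3 higher, with a median log2 fold change of -5.29, beside 29.3% lower over all genes. Pou5f1 had 47.3 against 1368 and 1441 CPM (log2 fold change -4.89, SE 0.22, edgeR adjusted p = 5.7e-05), and Sox2, its DNA-binding partner, had 7.07 against 247 and 275 CPM (log2 fold change -5.21). Nanog had 4.99 against 696 and 745 CPM, Esrrb 0.137 against 224 and 169 CPM, Tfcp2l1 0.137 against 82.6 and 62.1 CPM and Prdm14 0.0458 against 24.03 and 29.8 CPM. Both ES cell libraries were far above FLICs for each of these factors. Tcl1, an AKT coactivator, had 0 CPM in FLICs and was at least 476-fold lower. Klf4 (20.2 against 206 and 138 CPM), Klf5 (37.7 against 207 and 279 CPM) and the imprint guardian Zfp57 (85.0 against 518 and 652 CPM) differed less. The genes called higher were Il6st (193 against 58.8 and 65.8 CPM) and Lifr (66.5 against 42.5 and 31.6 CPM), which together form the receptor for the ES cell cytokine LIF, and Esrra (25.1 against 13.0 and 14.6 CPM), whose call was lost without either untreated library. Stat3, the transducer of that receptor, was at 77.2 against 98.2 and 84.0 CPM and was not called. The summed level of the group was 1179.6 CPM in FLICs against 10508 and 9957 CPM. In bulk RNA fewer cells of a type and less RNA per cell cannot be told apart, here and in each comparison that follows.

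Genes of the primed epiblast, the later pluripotent state, were called lower in FLICs for 16 of 26 and higher for 7, beside 29.3% and 28.4% of all genes. The share called higher was thus close to that over all genes. The median was -2.13, or -1.96 with genes at 0 set to their bound. The Nodal branch was lower, with the ligand Nodal at 2.97 against 112 and 219 CPM and its antagonists Lefty1 (5.63 against 28.1 and 23.01 CPM) and Lefty2 (0.618 against 64.2 and 44.1 CPM). Foxa2, a pioneer factor, was higher at 61.5 against 0.343 and 0.353 CPM, as were Sox4 (141 against 12.3 and 7.68 CPM) and N-cadherin, encoded by Cdh2 (297 against 12.3 and 16.9 CPM). Foxa2 was close to absent from both ES cell libraries, so its FLICs level stood apart from them by a log2 fold change of 7.45. Otx2 (4.09 against 1.72 and 1.41 CPM) was higher by a small amount, and Pou3f1 (2.91 against 3.78 and 2.51 CPM) was not called.

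Regulators of DNA methylation were mostly lower in FLICs, 11 of 20, with 5 higher. Dnmt3l, the cofactor of the de novo methyltransferases, had 0.206 against 325 and 261 CPM, and the de novo enzyme Dnmt3b had 24.2 against 174 and 143 CPM. The 5-methylcytosine oxidase Tet1 had 1.58 against 263 and 167 CPM, while its relative Tet3 was higher in FLICs at 46.5 against 15.2 and 8.39 CPM. The TET enzymes therefore differed in direction between the cell types. The maintenance methyltransferase Dnmt1 was at 263 against 509 and 345 CPM and was not called. Among 44 chromatin regulators, 16 were lower, led by Jarid2 (20.2 against 483 and 355 CPM), a partner of the Polycomb complex PRC2, and by the demethylase Kdm5b (97.2 against 551 and 402 CPM). A further 13 were higher, led by Hdac7 (113 against 2.18 and 2.31 CPM), the architectural factor Hmga2 (75.5 against 3.25 and 5.80 CPM) and Bmi1 (68.8 against 14.1 and 9.41 CPM), a Polycomb subunit that represses Cdkn2a. These chromatin counts stand beside 28.4% higher and 29.3% lower over all genes. The count of chromatin regulators called lower was 25 without ES cell replicate 1 and 29 without replicate 2. Genes of post-transcriptional control were called at shares close to those over all genes, with 7 of 24 higher and 8 lower, 14 without ES cell replicate 2.

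Germline and meiosis genes were almost all lower in FLICs, 31 of 33 with 0 higher, and a median of -6.39 with genes at 0 set to their bound. Ddx4, a germ cell RNA helicase, had 0.160 against 72.4 and 86.9 CPM, Tex19.1 had 0.183 against 168 and 344 CPM and the RNA binder Dazl had 0.0229 against 13.9 and 15.8 CPM. The meiotic genes Stra8 (0 against 32.5 and 23.8 CPM) and Syce1 (0 against 28.2 and 27.9 CPM) had 0 counts in FLICs and were at least 418-fold and 409-fold lower. Two-cell embryo genes, which a small share of ES cells are known to express, followed the same direction: 38 of 40 were lower, with a bounded median of -5.60. Summed over the group the level was 121 CPM in FLICs against 893 and 956 CPM, and most of the FLICs total came from Ube2e3 (103 against 28.2 and 21.8 CPM), the 1 gene called higher. The Zscan4 copies Zscan4c, Zscan4d and Zscan4f had 0 counts in FLICs, with Zscan4d at 0 against 45.1 and 38.9 CPM. Zfp352 (0 against 6.58 and 3.02 CPM) and the Dux copy Duxf3 (0 against 2.15 and 1.41 CPM) were also at 0 in FLICs and low in both ES cell libraries.

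Markers of fibroblasts and mesenchyme were higher in FLICs for 26 of 36 genes and lower for 8, with a bounded median of 4.76. Col1a1, a chain of type I collagen, had 881 against 1.28 and 1.80 CPM (log2 fold change 9.17, SE 0.27, edgeR adjusted p = 4.07e-05), and Col1a2, its partner chain, had 251 against 0.499 and 0.196 CPM. The PDGF receptor Pdgfrb had 89.5 against 2.87 and 1.76 CPM, the hyaluronan receptor Cd44 had 499 against 0.842 and 1.29 CPM, and the matrix protein Postn had 47.3 against 0.125 and 0 CPM. These genes were present in FLICs and nearly absent from both ES cell libraries. Other fibroblast markers went the opposite way: Thy1 (0.641 against 4.77 and 7.41 CPM), Nt5e (0.572 against 12.7 and 8.35 CPM) and the microfibril protein Mfap5 (0 against 4.31 and 3.92 CPM) were lower in FLICs, and Pdgfra (0.778 against 1.40 and 1.84 CPM) was not called. Dcn (3.02 against 0.0936 and 0.0784 CPM) was higher but low, and Lum (0.0915 against 0.125 and 0.0784 CPM) was at or under 0.13 CPM in all 3 libraries. Eng was also called lower, at 4.80 against 13.5 and 62.5 CPM, with a log2 fold change of -2.98 that was -1.50 without ES cell replicate 2.

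The collagen genes were higher for 21 of 34 and lower for 5, with a summed level of 5057 CPM in FLICs against 234 and 347 CPM. The fibrillar chain Col5a1 had 582 against 10.0 and 16.3 CPM, the basement membrane chains Col4a1 and Col4a2 had 753 against 41.7 and 29.1 CPM and 453 against 9.98 and 9.84 CPM, and the beaded-filament chain Col6a1 had 191 against 0.125 and 0.196 CPM. Collagens lower in FLICs were Col18a1 (36.2 against 132 and 244 CPM), Col9a2 (0.252 against 6.27 and 5.02 CPM) and Col17a1 (0.275 against 1.81 and 3.65 CPM), and 8 rather than 5 were called lower without ES cell replicate 1. The enzymes that process and remodel this matrix moved with the fibrillar chains: 33 of 38 were higher and 2 lower, with a median of 3.47. The collagen crosslinkers Lox and Loxl2 had 70.0 against 0 and 0.196 CPM and 399.6 against 0.905 and 1.06 CPM, the collagen chaperone Serpinh1 had 1879 against 184 and 172 CPM, and the gelatinase Mmp2 had 281 against 5.46 and 8.82 CPM. Protease inhibitors were higher as well, with Timp2 at 325 against 1.997 and 2.67 CPM and Timp3 at 217 against 2.06 and 1.41 CPM. The other gelatinase, Mmp9 (0.275 against 5.40 and 4.94 CPM), and Mmp15 (1.19 against 7.61 and 5.29 CPM) were the matrix enzymes called lower.

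Integrins, the receptors for this matrix, were higher for 10 of 19, led by Itgb8 (14.7 against 0 and 0 CPM), at least 281-fold higher. The common beta subunit Itgb1 had 1973 against 366 and 289 CPM, and the vitronectin receptor subunits Itgav and Itgb3 had 221 against 20.03 and 25.4 CPM and 57.3 against 1.997 and 4.74 CPM. The laminin receptor subunit Itga6 was at 88.9 against 92.5 and 77.3 CPM and was not called. Itgb4, which pairs with Itga6 in hemidesmosomes, was the integrin called lower, at 1.14 against 8.83 and 45.4 CPM, and its log2 fold change of -4.56 was -2.96 without ES cell replicate 2. Integrins called lower numbered 3 without ES cell replicate 1 and 2 without replicate 2.

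Smooth muscle genes were higher for 17 of 20 and lower for 1, with a median of 3.27 and a summed level of 21456 CPM in FLICs against 1111 and 1163 CPM. Acta2 alone had 7921 against 2.15 and 1.96 CPM (log2 fold change 11.91, SE 0.24, edgeR adjusted p = 4.07e-05). Tagln, an actin crosslinker, had 1517 against 3.74 and 9.41 CPM, the tropomyosin Tpm1 had 3176 against 153 and 171 CPM and caldesmon, Cald1, had 2396 against 78.1 and 152 CPM. These genes were high in FLICs and low in both ES cell libraries, of which replicate 2 had the higher Tagln and Cald1 values. Markers of mature smooth muscle differed in direction. Calponin, Cnn1, was higher at 13.4 against 0.530 and 2.63 CPM and the cofactor Myocd at 4.62 against 0.218 and 0.588 CPM, desmin, Des, was lower at 2.54 against 7.71 and 8.66 CPM, and Myh11, smooth muscle myosin, was at 0.275 against 0.406 and 1.53 CPM and was not called. Genes of the group called lower numbered 2 without ES cell replicate 1. Srf, serum response factor itself, was higher by a log2 fold change of 0.61 (108 against 74.2 and 67.6 CPM), a call lost without either untreated ES cell library. Its promoter window, with that of Myl9 printed above, was one of the pair in this group with a CArG box, and Myl9, a myosin light chain, had 72.3 against 5.93 and 8.98 CPM.

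All 6 actin genes were higher in FLICs, with the cell-type-restricted ones furthest apart. The gamma smooth muscle actin Actg2 had 76.2 against 0.187 and 0.0784 CPM, skeletal alpha-actin Acta1 had 213 against 4.49 and 3.53 CPM and cardiac alpha-actin Actc1 had 3.13 against 0.156 and 0.196 CPM. The cytoplasmic actins differed least: Actg1, whose promoter window is printed above, had 3436 against 1265 and 1539 CPM and Actb had 7153 against 4951 and 4131 CPM. The Actb call, at a log2 fold change of 0.66, was lost without either untreated ES cell library. Per kilobase of deposited length, Acta2 in FLICs (7004) was above Actb (6308) and Actg1 (2586), whereas in ES cells it was far below both (1.82, 4005 and 1055). The coding sequences of actins are closely alike, so reads shared between them may have been divided among the genes.

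**Figure D3:**
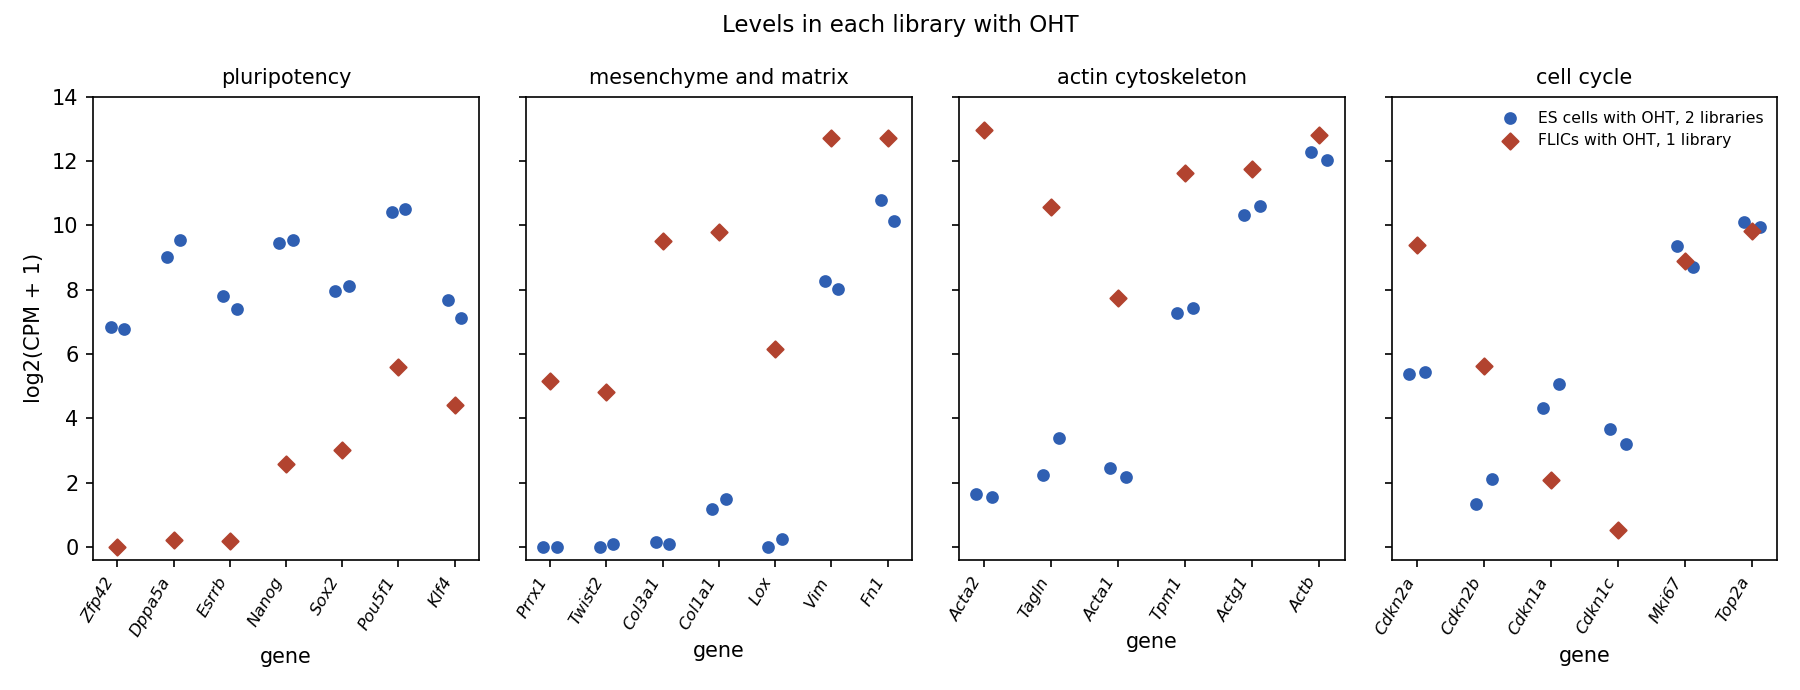
Points show single libraries with OHT for selected genes, with log2(CPM + 1) on the axis, FLICs and ES cells in separate symbols. FLICs lie above both ES cell libraries for mesenchymal and contractile genes such as Acta2 and Col1a1 and below both for pluripotency genes such as Pou5f1 and Nanog, and between them for Mki67.

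Where a cytoskeletal protein has paralogues, the cell types used different members. Of 38 such genes 22 were higher and 7 lower in FLICs. Filamins A and C were higher (Flna at 5124 against 589 and 479 CPM, Flnc at 574 against 22.3 and 44.1 CPM), as was the calponin Cnn2 (694 against 25.9 and 42.6 CPM), while Cnn3 was at 842 against 666 and 645 CPM and was not called. The tropomyosins Tpm1, Tpm2 (251 against 14.6 and 24.9 CPM) and Tpm4 (607 against 39.0 and 42.0 CPM) were higher and Tpm3 (195 against 249.7 and 225 CPM) was not called. Among the nuclear lamins, Lmna was higher (1011 against 96.2 and 48.3 CPM) and Lmnb1 (266 against 828 and 613 CPM) and Lmnb2 (41.5 against 102 and 84.4 CPM) were lower. Of the tubulins, Tubb6 was higher (344 against 61.8 and 120.4 CPM) and Tubb3 (85.3 against 189 and 198 CPM) and Tubb4b (635 against 1114 and 1308 CPM) lower. Vim, or vimentin, the mesenchymal intermediate filament, had 6652 against 309.7 and 258 CPM, and the epithelial keratin Krt8 was lower at 12.1 against 47.9 and 44.1 CPM.

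Epithelial junction genes were lower for 22 of 26 and higher for 0, with a median of -3.73. E-cadherin, Cdh1, had 63.7 against 884 and 682 CPM (log2 fold change -3.62, SE 0.27, edgeR adjusted p = 0.000226), Epcam had 15.8 against 107 and 131 CPM and the tight junction gene Cldn4 had 0.114 against 43.7 and 57.9 CPM. Esrp1 and Ovol2, which maintain epithelial splicing and transcription, had 1.30 against 12.9 and 8.63 CPM and 0.206 against 12.9 and 9.76 CPM. FLICs were below both ES cell libraries for each of these, yet Cdh1 was still well above the floor. Keratin 19, Krt19, was at 23.95 against 7.68 and 16.04 CPM and was not called, and 1 gene of the group was called higher when either ES cell library was left out. Among regulators of the epithelial to mesenchymal transition and cadherins, 16 of 22 were higher. Snai2 had 105 against 0.624 and 1.61 CPM, Zeb2 97.4 against 1.28 and 0.470 CPM and Twist2 27.3 against 0 and 0.0784 CPM, while Snai1 (28.0 against 13.3 and 12.8 CPM) and Zeb1 (65.9 against 38.1 and 34.1 CPM) were already present in ES cells and were higher by less. The mesenchymal cadherin Cdh11 had 448 against 0.686 and 1.10 CPM and Cdh2 had 297 against 12.3 and 16.9 CPM. In this group 6 genes were called lower, and 3 without either untreated library.

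Transcription factors of mesoderm and mesenchyme were higher for 39 of 55 and lower for 6, with a median of 2.72. Runx2, the bone lineage factor, had 48.7 against 0.0624 and 0.118 CPM, the nuclear receptor Nr2f2 had 77.8 against 1.44 and 0.588 CPM, and the HOX cofactors Meis1 and Meis2 had 63.1 against 2.34 and 1.06 CPM and 108 against 4.34 and 2.27 CPM. Tbx18 had 26.9 against 2.22 and 1.06 CPM, Foxc1 22.5 against 0.187 and 0.549 CPM and Ets1 50.3 against 0.499 and 0.549 CPM. Pax3, a factor of the dorsal neural tube, neural crest and muscle precursors, had 68.7 against 0.437 and 0.274 CPM. The naive factor Tbx3 (4.80 against 192 and 184 CPM) was lower, as was Msx1 (0.572 against 4.87 and 1.88 CPM). Gata2 was called lower at 6.95 against 48.8 and 15.7 CPM, with a log2 fold change of -2.22 that was -1.18 without ES cell replicate 1.

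HOX genes, which record position along the body axis, were called higher for 18 of 36 and lower for 8, beside 28.4% and 29.3% of all genes. Those with the most reads in FLICs were the posterior genes of cluster A, Hoxa9 (47.6 against 0.655 and 0.392 CPM), Hoxa10 (64.4 against 1.498 and 1.14 CPM) and Hoxa11 (50.7 against 0.281 and 0.470 CPM), followed by Hoxb9 (28.6 against 3.68 and 4.51 CPM) and Hoxb7 (15.2 against 0.780 and 0.667 CPM). Genes called lower were Hoxd1, Hoxd9, Hoxd11 and Hoxd13 of cluster D, Hoxc5, Hoxc12 and Hoxc13 of cluster C, and Hoxb1. On CPM + 1, only 1 HOX gene was at least 2-fold below both ES cell libraries. Hoxd13 was at 0.0686 against 2.43 and 0.941 CPM, and Hoxd11 had 0 CPM in FLICs (0 against 1.19 and 0.314 CPM). The summed HOX level was 276 CPM in FLICs against 44.5 and 28.2 CPM, most of it from 4 genes, Hoxa9, Hoxa10, Hoxa11 and Hoxb9.

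Genes of TGF-beta and BMP signalling were called higher for 28 of 48 and lower for 12, beside 28.4% and 29.3% of all genes. The share called lower was thus not above that over all genes. The ligands Tgfb2 and Tgfb3 had 90.7 against 0.967 and 0.823 CPM and 44.3 against 0.281 and 0.235 CPM, and Inhba, an activin subunit, had 22.5 against 0.0624 and 0 CPM. The latent binding proteins Ltbp1 and Ltbp3 had 382 against 4.09 and 3.18 CPM and 170.1 against 1.22 and 1.65 CPM, the type II receptor Tgfbr2 had 67.0 against 0.437 and 1.02 CPM, and the BMP antagonist Grem1 had 190.1 against 0.312 and 0.314 CPM. All of these were at or below 4.09 CPM in ES cells. Ligands of ES cells were lower in FLICs, with Gdf3 at 6.66 against 266 and 212 CPM beside Nodal, and the Nodal co-receptor Tdgf1 was at 3.93 against 74.2 and 71.6 CPM. The signal transducers differed little: Smad2 (97.5 against 70.4 and 66.1 CPM) and Smad4 (104 against 74.6 and 63.1 CPM) were higher by log2 fold changes of 0.52 and 0.60, calls that were lost without either untreated library. Smad3 (26.6 against 6.27 and 5.72 CPM) was higher by 2.15.

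Receptor kinases and their ligands were called higher for 22 of 47 and lower for 12, beside 28.4% and 29.3% of all genes. Axl had 473 against 1.997 and 2.23 CPM, Egfr 106 against 1.56 and 4.59 CPM, Met 87.3 against 4.15 and 2.51 CPM and Fgfr2 64.7 against 2.37 and 4.20 CPM, all higher in FLICs. Kit (0.183 against 57.4 and 56.3 CPM) and Erbb3 (1.05 against 84.0 and 90.5 CPM) were lower, as was Fgf4 (0.320 against 79.2 and 79.9 CPM), the autocrine FGF of ES cells. Fgfr1 was at 199.6 against 147 and 100.1 CPM and was not called. Of 43 WNT pathway genes, 16 were higher and 12 lower, beside 28.4% and 29.3% of all genes. The ligands Wnt5a (53.9 against 0.250 and 0.235 CPM) and Wnt4 (36.4 against 0.406 and 0.235 CPM) and the WNT amplifier Rspo2 (17.3 against 0.0312 and 0.157 CPM) were higher. Axin2, a transcriptional target of beta-catenin, was lower at 1.12 against 71.8 and 47.4 CPM, as were the receptor Fzd10 (0.503 against 72.4 and 47.3 CPM) and the secreted inhibitor Sfrp1 (5.77 against 91.5 and 70.4 CPM). The ligand Wnt5b (2.06 against 14.3 and 10.00 CPM) and the amplifier Rspo1 (0.160 against 1.25 and 2.51 CPM) were lower too, so ligands and amplifiers went both ways. Ctnnb1, beta-catenin itself, was at 777 against 569 and 532 CPM and was not called.

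Targets of YAP and TEAD, effectors of the Hippo pathway, were higher for 20 of 28 and lower for 3. The 28 genes include some that encode the factors themselves, among them Yap1, Wwtr1, Tead1, Tead3 and Tead4. Ankrd1, whose promoter window above holds GGAATG at 2 places, had 173 against 0.718 and 0.667 CPM (log2 fold change 7.95, SE 0.19, edgeR adjusted p = 4.07e-05). Myof, a membrane repair protein, had 498 against 10.2 and 7.53 CPM, tissue factor F3 had 304 against 3.62 and 6.63 CPM and Ccn1, a matricellular protein, had 884 against 68.8 and 123 CPM. Ccn2, its close relative, differed less, at 236 against 121 and 152 CPM, and its call was lost without either untreated library. The coactivator genes themselves did not pass the test, with Yap1 at 127 against 156 and 134 CPM and Wwtr1 at 78.0 against 65.8 and 49.2 CPM. Of the TEAD genes, Tead2 (206 against 67.9 and 50.6 CPM) and Tead3 (40.2 against 4.31 and 2.82 CPM) were higher, Tead1 (34.5 against 25.8 and 28.7 CPM) was not called and Tead4 (14.7 against 48.4 and 25.9 CPM) was called lower, by -1.34 and by -0.82 without ES cell replicate 1. Genes of the group called lower numbered 5 without ES cell replicate 2.

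Immediate early genes, which respond to serum and stress within minutes, were higher for 19 of 26 and lower for 3. Egr1 had 430.3 against 6.83 and 3.49 CPM, Fos 209.5 against 5.05 and 4.12 CPM, Fosb 82.9 against 2.37 and 4.23 CPM and Fosl1 49.4 against 1.53 and 4.20 CPM. The AP-1 partners Jun (170.4 against 17.5 and 35.6 CPM) and Junb (174 against 31.6 and 24.9 CPM) were higher and Jund (206 against 149 and 93.7 CPM) was not called. Myc, which ES cells also depend on, had 198 against 118 and 100.1 CPM. The 3 genes called lower were Nr4a1 (17.2 against 84.2 and 78.7 CPM), Klf4 and Klf2 (5.22 against 171 and 165 CPM), and Klf2 and Klf4 are also in the naive pluripotency group; 5 were called lower without ES cell replicate 1. How far handling of the cultures, to which these genes respond, differed between the cell types was not tested.

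Genes of the secretory programme known from senescent cells were higher for 18 of the 23 tested of 32 and lower for 2. The cytokine Csf1 had 273 against 0.593 and 0.706 CPM, the chemokines Ccl2 and Cxcl12 had 55.4 against 0.0312 and 0.157 CPM and 123 against 0.218 and 0.235 CPM, and Igfbp7 had 192 against 3.56 and 2.63 CPM. Interleukin 6, Il6, had 0.755 against 0 and 0.0392 CPM (log2 fold change 5.16, or 7.74 without ES cell replicate 2), and Mmp3, whose promoter window above holds TGAGTCA, had 1.28 against 0 and 0.0392 CPM. The last 2 were called higher at levels near 1 CPM. Il1a (0.0686 against 0 and 0 CPM) and Il1b (0 against 0 and 0 CPM) were at or near 0 in all 3 libraries. Icam1 (4.28 against 108 and 91.9 CPM) and Gdf15 (0.252 against 2.56 and 5.02 CPM) were lower in FLICs.

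Of 37 interferon-responsive genes 13 were higher and 13 lower, not far from the 28.4% and 29.3% of all genes. Ifi204, a DNA sensor of the interferon-inducible p200 family, had 86.1 against 0.0624 and 0.0784 CPM, the transcription factor Irf2 had 18.9 against 0.530 and 0.588 CPM and the receptor subunit Ifnar2 had 30.3 against 5.77 and 7.88 CPM. The oligoadenylate synthase genes Oas1a (0 against 28.1 and 37.4 CPM), Oas1g (0 against 14.7 and 21.5 CPM) and Oas2 (0 against 2.31 and 3.61 CPM) had 0 counts in FLICs, and Trim25 (6.04 against 187 and 226 CPM) was lower. Members of the Oas and Ifi200 families have close paralogues, and how shared reads were assigned is not given in the sources used here. Interferon beta, Ifnb1, had 0 against 0 and 0 CPM, and Ifit1 had 0.206 against 0 and 0 CPM. Among 29 nucleic acid sensor genes 13 were higher and 6 lower, beside 28.4% and 29.3% of all genes. Cgas, the cytosolic DNA sensor, was higher at 13.9 against 5.71 and 5.72 CPM, whereas Tmem173, which encodes its partner STING, was lower at 0.526 against 10.3 and 8.39 CPM. Aim2 was lower at 0.686 against 72.2 and 70.0 CPM and the lipopolysaccharide receptor Tlr4 higher at 12.1 against 0 and 0.0784 CPM. Sensor and adaptor of the cGAS and STING route therefore differed in direction.

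Of 22 genes of MHC class I presentation, 6 were higher and 7 lower, close to the shares of 28.4% higher and 29.3% lower over all genes. Beta-2 microglobulin, B2m, had 339 against 26.3 and 38.6 CPM and the loading chaperone Tapbp had 204 against 42.6 and 38.0 CPM, both higher. The classical heavy chain genes were lower, with H2-K1 at 5.67 against 52.3 and 57.7 CPM and H2-D1 at 14.1 against 30.6 and 37.8 CPM. Tap1, the peptide transporter subunit, was at 1.44 against 1.03 and 9.06 CPM and was not called, with the ES cell libraries on both sides of FLICs.

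Among CDK inhibitors, cyclins and RB family genes, 10 of 26 were higher and 7 lower, beside 28.4% and 29.3% of all genes. The INK4 inhibitors were higher in FLICs: Cdkn2a, which encodes p16 and p19ARF, had 665 against 40.7 and 42.5 CPM (log2 fold change 3.997, SE 0.17, edgeR adjusted p = 4.81e-05), Cdkn2b had 48.1 against 1.53 and 3.33 CPM, Cdkn2c 11.6 against 0.686 and 0.0784 CPM and Cdkn2d 20.6 against 9.74 and 9.68 CPM. Cdkn1b, p27, was higher at 119 against 20.2 and 12.1 CPM, and Cdkn1a, p21, was lower at 3.29 against 19 and 32.9 CPM, as was Cdkn1c, p57, at 0.458 against 11.7 and 8.31 CPM. The RB relatives Rbl1 (66.1 against 25.9 and 21.6 CPM) and Rbl2 (49.8 against 6.12 and 11.5 CPM) were higher, and Rb1 (8.08 against 3.74 and 10.55 CPM) was not called. Cyclin genes also differed in use, with Ccnd2 (61.6 against 12.4 and 3.88 CPM) and Ccne2 (76.0 against 25.6 and 33.7 CPM) higher and Ccne1 (63.9 against 339.7 and 279.9 CPM) and Ccnd3 (57.9 against 122 and 158 CPM) lower. Ccnd1 (120.5 against 106 and 56.9 CPM), Cdk1 (252 against 203 and 215 CPM), Ccna2 (338 against 447 and 419.9 CPM), Ccnb1 (86.4 against 122 and 94.8 CPM), E2f1 (73.3 against 70.5 and 55.4 CPM), E2f3 (22.6 against 40.9 and 29.1 CPM), E2f4 (131 against 251 and 175 CPM) and E2f5 (19.4 against 22.2 and 19.3 CPM) were not called. The calls of Cdk4 (612 against 351 and 364 CPM), Cdk2 (52.1 against 80.6 and 73.7 CPM), Cdk6 (14.1 against 22.1 and 19.8 CPM) and E2f2 (3.07 against 7.80 and 6.04 CPM) were lost without either untreated ES cell library, 4 genes were called lower without either, and 11 without ES cell replicate 2.

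Genes of the p53 pathway could not be described as 1 group, because the ES cell libraries with OHT differed from each other in it. By the fit, 16 of 39 were lower in FLICs and 1 higher, beside 29.3% and 28.4% of all genes, with a median of -0.97. That median was -1.25 without ES cell replicate 1 and -0.15 without replicate 2, so its size depended on the library and its sign did not. On CPM + 1, the median log2 ratio of FLICs to ES cell replicate 1 was -0.09 (18 positive and 21 negative) and to replicate 2 was -1.13 (7 positive and 32 negative). Between the ES cell libraries themselves, 34 of 39 genes were higher in replicate 2, with a median log2 ratio of 0.96. Trp53, the gene of p53, was at 7.82 against 8.39 and 83.1 CPM and was not called. For Trp53, FLICs and ES cell replicate 1 were thus close, and replicate 2 was higher. Mdm2 (93.9 against 79.8 and 356 CPM) and Ccng1 (84.8 against 45.2 and 295 CPM) were also highest in replicate 2, and neither was called. Summed over the group, the level was 1297 against 1470 and 2730 CPM. Without OHT it was 1283 CPM in FLICs against a mean of 2854 CPM in ES cells, to which replicate 2 with OHT was nearer than replicate 1. In the contrast without OHT, 19 genes were called lower and 2 higher in FLICs, with a median of -1.01. Genes below both ES cell libraries in FLICs were Cdkn1a, the stress protein Sesn2 (4.598 against 29.9 and 61.9 CPM), the BH3-only gene Pmaip1 (1.10 against 8.83 and 18.6 CPM), Tigar (18.7 against 178 and 169.7 CPM), Sfn (4.62 against 129.9 and 129 CPM) and Trp73 (0 against 3.18 and 8.04 CPM). Fas, the death receptor, was the gene called higher, at 18.7 against 0 and 0.941 CPM, with a log2 fold change of 5.40 that was 12.37 without ES cell replicate 2, where the remaining ES cell library had 0 counts.

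**Figure D4:**
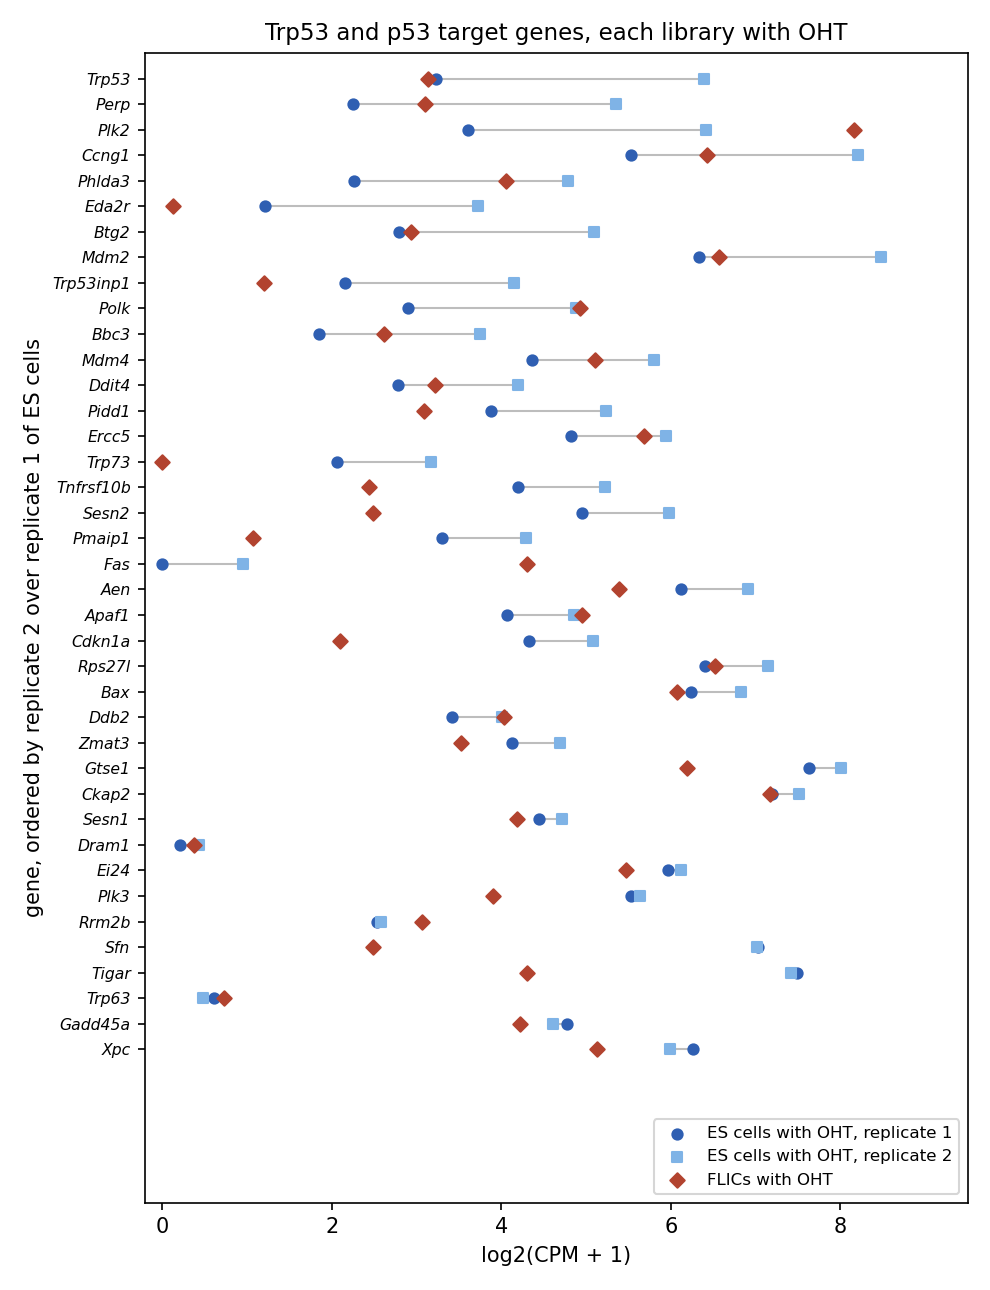
For each p53 pathway gene, points give log2(CPM + 1) in FLICs with OHT and in ES cells with OHT replicates 1 and 2. Replicate 2 is above replicate 1 for 34 of 39 genes, and Trp53 is at 7.82 CPM in FLICs, 8.39 in replicate 1 and 83.1 in replicate 2.

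Telomerase and telomere maintenance genes were lower for 12 of 21 and higher for 3, with a median of -0.74. Tert, the catalytic subunit, had 5.95 against 10.48 and 21.4 CPM and a log2 fold change of -1.42, which was -0.83 without ES cell replicate 2. The RNP proteins Dkc1 (203 against 417 and 426 CPM) and Nhp2 (359.8 against 730.2 and 845 CPM) and the chromatin remodeller Atrx (297 against 489 and 668 CPM) were lower as well. Stn1, of the CST complex that finishes telomere replication, was higher at 53.7 against 10.9 and 11.8 CPM, and its partner Ctc1 was at 115 against 84.7 and 146 CPM and was not called; 5 genes were called higher without ES cell replicate 2. End joining genes were called lower for 6 of 18 and higher for 2, beside 29.3% and 28.4% of all genes, with Parp1 (277 against 1059.8 and 851 CPM) and the Ku subunit Xrcc5 (67.2 against 154 and 167 CPM) lower. The other Ku subunit, Xrcc6 (162 against 135 and 155 CPM), and Lig4 (38.7 against 35.0 and 23.2 CPM), the ligase that joins deprotected telomeres, were not called. Among ATM and 53BP1 signalling genes 6 of 22 were lower and 4 higher, neither above the shares over all genes (29.3% lower, 28.4% higher). Atm (38.7 against 101 and 73.7 CPM), its target kinase Chek2 (22.3 against 50.1 and 59.7 CPM) and the 53BP1 effector Rif1 (166 against 764 and 665 CPM) were lower, and Mdc1 (219 against 265 and 207 CPM) and Rnf168 (83.1 against 62.9 and 79.4 CPM) were not called. Trp53bp1, the gene of 53BP1, had 142 against 95.8 and 99.7 CPM, and its call was lost without either untreated library.

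Homologous recombination and replication genes were more often lower than higher. Their counts and those of the mitosis genes stand beside 28.4% higher and 29.3% lower over all genes. In the ATR and recombination group 21 of 43 were lower, with Brca2 at 34.2 against 153 and 96.0 CPM, the helicase Blm at 55.8 against 203 and 215 CPM and the checkpoint kinase Chek1 at 44.2 against 110.0 and 97.1 CPM. Mus81, an endonuclease, was higher at 43.0 against 14.7 and 19.2 CPM; higher calls in this group numbered 2, with 5 or 6 without ES cell replicate 1 or 2 and 1 without either untreated library. In replication 17 of 38 were lower, with the helicase subunits Mcm2 (497 against 1305 and 859 CPM) and Mcm5 (449 against 1178 and 897 CPM) and the uracil glycosylase Ung (12.1 against 133 and 115 CPM), and Pcna (335 against 336 and 288 CPM) was not called. Of 36 mitosis genes 3 were higher and 5 lower, both shares below those over all genes. Mki67 (478 against 649 and 418 CPM), Top2a (898 against 1107 and 984 CPM) and Aurkb (57.3 against 48.8 and 62.9 CPM) were not called. The mitotic counts were 9 higher and 9 lower without ES cell replicate 1 and 5 higher and 16 lower without replicate 2, and 1 higher and 2 lower without either untreated library. In replication 10 genes were called lower without either untreated library.

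Apoptosis genes were higher for 13 of 27 and lower for 3. The effector caspase Casp6 (29.3 against 6.27 and 9.76 CPM) was higher, as were Casp12 (12.7 against 0 and 0.0784 CPM) and the survival gene Bcl2 (2.75 against 0.0936 and 0.0392 CPM). Bok, a BAX relative, had 35.1 against 5.37 and 4.39 CPM, while Bax (66.5 against 74.6 and 113 CPM) and Bak1 (142 against 131 and 88.2 CPM) were not called. Pmaip1 was lower, and the calls of Mcl1 (149 against 243 and 289 CPM) and Diablo (37.4 against 58.6 and 73.4 CPM) were lost without either untreated library; 7 genes were called lower without ES cell replicate 1 and 1 without either untreated library.

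Cholesterol synthesis genes were higher in FLICs for 20 of 23 and lower for 2, with a median of 1.63. The demethylating enzyme Cyp51 had 525 against 77.6 and 90.3 CPM and Msmo1 had 237 against 36.3 and 32.2 CPM. FLICs were above both ES cell libraries for each of them, and 1 gene of the group was called lower without either untreated library.

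Glycolytic and hypoxia-responsive genes were called higher for 12 of 34 and lower for 14, beside 28.4% and 29.3% of all genes, and 9 lower without untreated replicate 2. The neuronal-type glucose transporter Slc2a3 (29.3 against 694 and 458 CPM), the hexokinase Hk2 (39.0 against 321 and 179 CPM), the phosphofructokinase Pfkp (14.9 against 177 and 149 CPM) and Epas1, which encodes HIF-2 alpha (0.297 against 93.3 and 58.1 CPM), were lower. Vegfa (104 against 5.49 and 9.53 CPM) and Egln3 (11.9 against 1.40 and 1.61 CPM) were higher, so hypoxia-responsive genes did not move as 1 group. One-carbon and amino acid genes were lower for 16 of 29. Tdh, the threonine dehydrogenase on which mouse ES cells depend, had 0.229 against 335 and 404 CPM, the glycine cleavage subunits Gldc and Amt had 16.2 against 115 and 141 CPM and 6.86 against 163 and 200.5 CPM, and Bcat1 had 80.8 against 722 and 679 CPM. Phgdh, of serine synthesis, was higher at 245 against 93.7 and 91.3 CPM. Oxidative phosphorylation genes were called 8 higher and 8 lower of 36, with a median of -0.027 and both shares below those over all genes, and 1 higher without either untreated library. Cytosolic ribosome genes were called 7 lower and 0 higher of 40, both shares below the 29.3% and 28.4% of all genes. Their median was -0.24, and it was -0.30 without ES cell replicate 1 and -0.16 without replicate 2. The called members furthest apart were Rpl10l, Rpl39l and Rpl3l, with log2 fold changes of -13.84, -10.53 and -4.19. In the integrated stress response 6 of 22 were higher and 6 lower, about the shares over all genes (28.4% and 29.3%), with Cebpb (54.1 against 4.84 and 5.88 CPM) and Ddit3 (29.9 against 16.1 and 10.7 CPM) higher and Asns (155 against 989 and 744 CPM) lower.

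Markers of other cell types were checked in the same way, and their counts stand beside 28.4% higher and 29.3% lower over all genes. Endothelial markers were lower for 10 of 13 and higher for 1, Flt1 (log2 fold change 3.00). Their summed level was 24.6 CPM in FLICs against 134 and 212 CPM. Pecam1, which ES cells also express, had 0.389 against 83.1 and 152 CPM, and Tie1 had 0 against 9.49 and 5.45 CPM. Of 21 blood and immune markers 13 were at 0 in FLICs, among them the pan-leukocyte gene Ptprc. In both ES cell libraries 6 of the 21 were at 0. Of the 10 tested, 7 were called lower and 2 higher, Csf1r and Cd34 (log2 fold changes 2.90 and 1.55). The summed level was 18.9 CPM in FLICs against 120.2 and 181 CPM. Striated muscle markers were called 3 higher and 8 lower of 16 tested. The higher ones were Acta1, Actc1 and Tnnt2 (6.27 against 0.406 and 0.588 CPM), while the myogenic factors Myod1, Myog, Myf5 and Myf6 had 0 counts in FLICs. Cartilage, bone and fat markers were called 8 higher and 4 lower of 18 tested. Sox9 (37.5 against 0.905 and 1.10 CPM) and Pparg (36.4 against 0.0936 and 0 CPM) were higher. Alpl (3.29 against 265 and 191 CPM), which ES cells are known to express, was lower, and Ibsp (0 against 0 and 0 CPM) was at 0 throughout. The regulators named here were thus present in FLICs, and the late bone marker Ibsp was not detected.

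The counts that follow stand beside 28.4% higher and 29.3% lower over all genes. Neural markers were called 6 higher and 10 lower of 19. Zic1 (42.9 against 0.593 and 0.157 CPM), Pax6 (32.8 against 7.83 and 4.74 CPM) and Ncam1 (119.9 against 16.1 and 11.9 CPM) were higher, and the neuronal genes Stmn2 (7.80 against 347 and 332 CPM), Mapt (0.206 against 44.7 and 40.0 CPM) and Nefl (3.64 against 86.6 and 92.1 CPM) were lower. Endoderm markers were called 7 higher and 7 lower of 18, with Gata4 (13.9 against 1.44 and 0.706 CPM), Gata6 (17.7 against 0.967 and 0.745 CPM) and Dab2 (160.4 against 8.05 and 5.92 CPM) higher and Sox17 (0 against 0.343 and 0.745 CPM) at 0 counts in FLICs. Gata4 and Gata6 are also in the mesoderm group, and Foxa2 in the primed epiblast group. Trophoblast markers were called 4 higher and 9 lower of 17, with Prl2c2 (11 against 0 and 0 CPM) higher and Cdx2 (0.137 against 8.33 and 4.51 CPM) and Tfap2c (0.320 against 43.1 and 50.9 CPM) lower. None of these groups was as uniformly high as the matrix enzyme, actin or smooth muscle groups. The label of differentiated ES cells thus went with low naive and high mesenchymal and contractile genes, with Pou5f1 at 47.3 CPM in FLICs beside Zfp42 and Tcl1 at 0.

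The same cell type contrast without OHT shares no library with the one described above and was used to ask where the difference between FLICs and ES cells departs from it. Without OHT 8532 genes (54.9%) were called, 4074 (26.2%) higher and 4458 (28.7%) lower, of which 7358 were called in the same direction with OHT. Another 1606 were called with OHT only and 1171 without OHT only, which does not by itself show a difference. Only Bicc1, Pycr1 and Pim2, named after their values were seen, were called in opposite directions. Of the 15535 genes, edgeR called 0 for the difference between the contrasts (adjusted p of at least 0.638). At an unadjusted p under 0.05 there were 1057 (6.8%), and DESeq2 called 20, of which 1 was positive and 19 negative. Leaving out 1 ES cell library with OHT changed this count, to 2804 without replicate 1 and 2047 without replicate 2, and it was 0 without either untreated library.

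Genes with the smallest unadjusted p for that difference are given with both contrasts side by side. Ankrd1 had a log2 fold change of 7.95 with OHT and 10.60 without, at 144 against 0.0993 and 0.0798 CPM without OHT, so the FLICs levels were close and the ES cell levels differed. Osgin1 (33.7 against 2.84 and 2.16 CPM with OHT and 28.0 against 0.331 and 0.213 CPM without) and the interferon-inducible Gbp2 (27.2 against 3.46 and 3.25 CPM and 14.04 against 0.331 and 0.373 CPM) also had lower ES cell levels without OHT, and the FLICs level of Gbp2 was lower without OHT too. Pim2, a survival kinase, had a log2 fold change of -0.66 with OHT (14.9 against 23.2 and 23.8 CPM) and 1.06 without (29.1 against 13.5 and 14.5 CPM). Fgf7 had 7.66 against 0.312 and 0.235 CPM with OHT and 15.3 against 0 and 0 CPM without, where the ES cell libraries had 0 counts. On the positive side, Spats2l had 30.3 against 2.34 and 2.47 CPM with OHT and 13.6 against 4.34 and 4.55 CPM without, Dusp27 had 2.81 against 167 and 174 CPM and 0.803 against 211 and 205 CPM, Tnfrsf1b had 3.48 against 3.25 and 3.65 CPM and 1.45 against 6.19 and 6.601 CPM, Islr2 had 0.526 against 10.3 and 9.06 CPM and 0.0926 against 19.8 and 17.2 CPM, and Map10 had 0.366 against 9.83 and 9.14 CPM and 0 against 11 and 11.3 CPM. Their adjusted p by edgeR was 0.638, so none of these 10 differences passed the test. All 10 were called when either ES cell library with OHT was left out, 3 by DESeq2 and 0 without either untreated library. Bicc1 (4.03 against 2.28 and 1.88 CPM with OHT and 1.85 against 3.38 and 4.07 CPM without) and the proline enzyme Pycr1 (7.23 against 3.99 and 4.70 CPM and 4.97 against 10.0 and 11.9 CPM) had lower values in ES cells with OHT than without, and their calls with OHT were lost without either untreated library.

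By group, the cholesterol synthesis genes stood at a median of 1.63 with OHT and 0.94 without, a median difference of 0.68 beside 0.07 over all genes, and 10 of 23 had an unadjusted p under 0.05 for the difference, beside 6.8% over all genes. None passed the adjusted threshold. Two-cell genes stood at -8.60 with OHT and -5.14 without, where genes at 0 in FLICs make the fitted values depend on the prior count, and the summed level in ES cells was 893 and 956 CPM with OHT against a mean of 525 CPM without. Naive pluripotency, smooth muscle and matrix enzyme genes had medians of -5.29, 3.27 and 3.47 with OHT beside -5.28, 3.39 and 3.93 without.

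**Figure D5:**
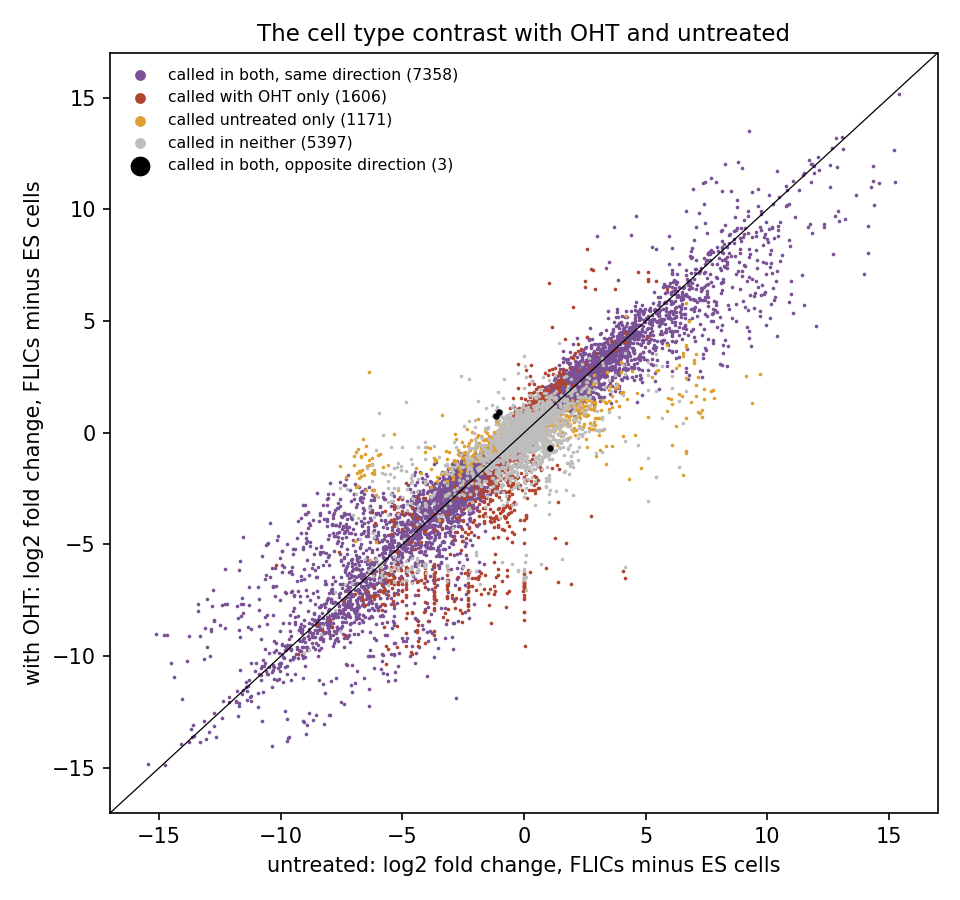
Each point is 1 gene, with the log2 fold change of FLICs against ES cells without OHT on the x axis and with OHT on the y axis. Most points lie near the diagonal (7358 genes called in the same direction in both and 3 in opposite directions, drawn in black), and colours give the contrasts in which edgeR called the gene.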

How the data were processed

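RNA-seq was deposited for 6 libraries of mouse ES cells and FLICs, with or without OHT. The deposited table holds raw read counts, as whole numbers, and a length for each of 22600 genes. Per the submitters' processing notes, Salmon, DESeq2 and the build GRCm38 were used, without versions or roles. The sources used here do not give the annotation or how reads shared by near-identical genes were handled. Levels per kilobase use these lengths, which are multiples of 3 for 77.62% of genes and so mostly coding length. The 13 mitochondrial genes had 0 counts in each library. A symbol was found for 22509 genes, and 91 had none. Promoter stretches are from RefSeq on GRCm38.p6. Libraries were grouped by title and treatment label. The ES cell libraries of a group differed by more than sampling noise and were counted as 2 samples.

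From the deposited counts, genes were filtered with filterByExpr, which left 15535, scaled by TMM and fitted with edgeR 4.0.16 in R 4.3.3 by the quasi-likelihood test, with 1 mean per group over all 6 libraries. Benjamini-Hochberg adjustment ran over all genes tested, with calls at 0.05. Each ES cell pair gave 1 of the 2 residual degrees of freedom, beside 3.79 prior ones, and the common biological coefficient of variation was 18.5%. CPM values use TMM-scaled totals. Total counts ran from 23534551 to 43965309. No molecular identifiers are named in the labels. Tables and figures used pandas 2.3.3 and matplotlib 3.10.9 in Python 3.11.15.

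The comparison, its 54 gene lists and the rules for naming genes were chosen with earlier results of these data known, so a list's direction is not independent evidence. Lists are described by counts and medians beside all genes, with no set test. Named were the shelterin, actin and CDK inhibitor lists, in each direction the 12 called genes with the largest fold change at 20 CPM or more and 2-fold beyond both ES cell libraries, gene models left out, and the 12 with the largest difference per kilobase at a log2 fold change of at least 3, up to 6 called members of each list and members whose role is described or that were called against their list's median, and the 5 smallest p-values in each direction for the difference between contrasts. In list medians given as bounded, genes at 0 in 1 cell type were set to the fold against 3 counts.

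Simulated counts, 5 sets of them, were used to test this procedure for FLICs against ES cells with OHT over 15535 genes, 200 of them changed. Recovery was 24.4% for 2-fold changes, 87.6% for 4-fold, 94.4% for 8-fold and 99.2% for 16-fold, and 11.2% of calls were false. Far fewer genes were changed there than were called in the data, so these shares do not carry over to the data. Alternatives tried were relative log expression scaling, library totals only, leaving the count filter out, requiring 5 CPM in 2 libraries, leaving out each ES cell library, a replicate block, only the 3 libraries with OHT, robust dispersion estimates, a test against 2-fold, DESeq2 1.42.0, and other pseudocounts, folds and minimums for the count without a test. The planned comparison of actin protein sequences was not run, as protein sequences were not used here. Some genes that these rules name are not reported here.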

Additional observations from a re-analysis of the deposited data

How the results depend on the processing

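With OHT, 8967 genes were called. Within 1.5 times of that were relative log expression scaling (8917), library totals only (8954), no count filter (9016), 5 CPM in 2 libraries (6448 of 11097), the 3 libraries with OHT only (6854), robust dispersion (8966), DESeq2 (8001) and leaving out 1 library (6849 to 11786). Library totals only gave 4077 higher and 4877 lower. A test against 2-fold gave 5044 (2334 higher, 2710 lower). With the replicate block, 10208 genes were called (replicate numbers deviated together with a correlation of 0.437, but 2 pairs cannot settle whether they pair the samples). For the difference between contrasts, where edgeR called 0, the replicate block gave 17 (1 positive, 16 negative), among them 3 of the 10 genes the report names for that difference, DESeq2 gave 20 (1 positive, 19 negative), and leaving out 1 library gave 0 to 2804 (0 to 1801 positive, 0 to 1003 negative). Without OHT, where 8532 were called, leaving out 1 library gave 5375 to 12025 (2506 to 5685 higher, 2845 to 6407 lower), with 5375 and 5391 when it was an untreated ES cell library. The count of genes beyond both libraries was 4929, and it was 3161 (1208 lower) with a pseudocount of 5 CPM and 2079 (1152 higher, 927 lower) at 4-fold. Of 470 genes that differed between the ES cell libraries with OHT, 177 did with a pseudocount of 5 CPM and 289 at a minimum of 5 CPM. Of 583 called named genes, 158 lost the call or direction in 1 or more settings. Terf2 did so without ES cell replicate 2, and many more did so without an untreated ES cell library. Signs turned for genes that were not called: Tinf2 (-0.016 with library totals only, -0.018 at 5 CPM), Aurkb (-0.016 with relative log expression scaling and with DESeq2, -0.049 with library totals only, -0.051 at 5 CPM), Ctc1 (0.017 without a filter, 0.033 with the replicate block) and Itga6 (-0.0084 with library totals only, -0.017 at 5 CPM). With 1 library left out, values ran from -0.11 to 0.25 for Tinf2, -0.39 to 1.09 for Rb1, -0.21 to 0.0037 for E2f5, -0.14 to 0.21 for Aurkb, -0.42 to 0.25 for Esr1, -0.29 to 0.078 for Mdc1, -0.46 to 0.19 for Mki67, -0.39 to 0.21 for Pou3f1, -1.80 to 0.89 for Ccng1, -0.35 to 0.42 for Ctc1, -0.072 to 0.20 for Itga6, -1.92 to 0.22 for Mdm2, -0.021 to 0.21 for Pcna and -2.65 to 0.47 for Tap1. List medians turned for MHC class I (-0.015 with library totals only, -0.14 to 0.30 with 1 library left out), endoderm (3.01 at 5 CPM), neural (2.30 at 5 CPM), cartilage, bone and fat (-0.039 without a filter), the integrated stress response (-0.0095 with library totals only, -0.22 at 5 CPM, -0.031 to 0.19 with 1 library left out), oxidative phosphorylation (-0.086 to 0.077 with 1 library left out), oestrogen receptor (0.022 at 5 CPM) and complement (0 without a filter, -0.0069 to 0.16 with 1 library left out). Their cause was not tested. In the simulation, where only 200 of 15535 genes were changed, a 2-fold change was recovered in 24.4% of cases. In the data 8967 genes were called, which makes the adjusted threshold less strict, so that share does not carry over. A gene that was not called was still not shown to be alike in the cell types.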

Other observations

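Of 33 surface protein genes other than integrins, 20 were called higher and 7 lower by edgeR, beside 28.4% and 29.3% of all genes. The same shares over all genes stand beside the complement and checkpoint counts below. The coat proteins of caveolae were higher together, with Cavin1 at 522 against 47.6 and 28.7 CPM, Cav2 at 32.4 against 0.0624 and 0 CPM and Cavin3 at 52.98 against 2.81 and 2.04 CPM, beside Cav1 in the report. The Ly6 family members Ly6a, known as SCA-1 (82.4 against 1.56 and 1.88 CPM), and Ly6c1 (105 against 0.125 and 0.0392 CPM) were higher, as were the adhesion molecule Alcam (42.0 against 0.874 and 0.941 CPM) and the anti-phagocytic signal Cd47 (56.3 against 5.52 and 4.86 CPM). The neurotrophin receptor Ngfr (0.252 against 40.8 and 47.7 CPM) and Icam2 (0 against 1.28 and 1.69 CPM) were lower. Of 10 complement and checkpoint genes 3 were higher, with the protease Masp1 at 169 against 0.156 and 0 CPM and C1ra at 25.99 against 1.47 and 1.49 CPM, and 2 lower, 4 without ES cell replicate 1, with the inhibitor Serping1 at 3.16 against 6.61 and 10.1 CPM. The ligand Cd274 (PD-L1) was at 0.778 against 0.686 and 0.627 CPM and was not called.

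Imprinted genes, which are expressed from 1 parental allele, were called higher for 11 of 24 and lower for 8, beside 28.4% and 29.3% of all genes. The share called lower was thus near that over all genes. Paternally expressed genes went both ways: Peg3 (2051 against 307 and 185 CPM) and Peg10 (1993 against 559 and 372 CPM) were higher, and Plagl1 (6.06 against 153 and 116 CPM) and Snrpn (37.9 against 109 and 84.1 CPM) were lower. The growth inhibitors Cdkn1c and Phlda2 (0.503 against 24.7 and 16.4 CPM) and the receptor Igf2r (16.4 against 129 and 111 CPM), which removes IGF2, were lower. Igf2 itself, also paternally expressed (2.45 against 2.22 and 2.35 CPM), was not called. Among RNA-binding regulators, the splicing factors Mbnl1 (56.1 against 8.83 and 8.08 CPM) and Mbnl2 (91.9 against 7.33 and 12.7 CPM) were higher, and L1td1 (32.5 against 1318 and 905 CPM), Trim71 (8.56 against 121 and 82.4 CPM) and Lin28a (5.08 against 83.5 and 43.9 CPM), a blocker of let-7 processing, were lower. Oestrogen receptor genes bear on OHT, a ligand of that receptor. The receptor gene Esr1 was at 129 against 172 and 109 CPM and was not called here (called lower without ES cell replicate 2), the coactivator Ncoa3 was lower at 70.5 against 418 and 343 CPM, and Cyp1b1, an oestrogen-metabolising enzyme, was higher at 98.8 against 0.312 and 0.863 CPM; 4 genes of this group were called higher and 4 lower. With 13 genes of the group tested, both counts were close to the 28.4% higher and 29.3% lower over all genes. Whether OHT changed any genes of this group was not tested apart from TRF2 loss.

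Levels differed by chromosome between the ES cell libraries. Over genes at 5 CPM or more in each of the 6 libraries, the median log2 ratio of replicate 2 to replicate 1 with OHT was -0.33 on chromosome 6, -0.30 on chromosome 8 and 0.34 on chromosome 16. Between the untreated ES cell libraries the same medians were -0.17, -0.18 and 0.13. Against these libraries, FLICs with OHT had medians of 0.01 and 0.29 on chromosome 6, -0.09 and 0.17 on chromosome 8, and 0.07 and -0.23 on chromosome 16, for replicates 1 and 2. FLICs were above both ES cell libraries with OHT on several chromosomes, with medians of 0.40 and 0.44 on chromosome 2, 0.36 and 0.38 on chromosome 17, 0.32 and 0.40 on chromosome 19, and 0.59 and 0.37 on the X chromosome. Single-gene differences on these chromosomes include such offsets, and their source was not tested.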
